A study of Mus musculus with 80 samples.

Results

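The livers of vehicle-injected mice taken 12 h after the injection were compared with those taken 4 h after it, over all genes. Of the 80 livers of the series 20 belong here, and 18 entered the comparison, with 4 knockout and 5 wild-type livers at 12 h and 4 knockout and 5 wild-type livers at 4 h. All came from 8-week-old female C57BL/6J mice that were Adamts12-/- or wild-type and received a single intraperitoneal injection of olive oil, the carrier that the other mice of the series received with carbon tetrachloride (CCl4, a hepatotoxin). Adamts12 encodes a secreted metalloproteinase, and the labels name neither the deleted part of the gene nor a tissue or cell type to which the deletion is limited. Wild-type livers 12 h and 4 h after a single CCl4 dose of 0.3 ml/kg (5 each), and vehicle livers taken after 24 h and 7 days (5 of each genotype at each time), were set beside them. The labels give neither the clock hour of injection nor uninjected livers, so time of day, time after the injection and handling cannot be told apart in this comparison. The ranges of mouse numbers in the labels do not overlap between 12 h and 4 h in the knockout livers kept. In wild type they overlap only through 12 h replicate 1, and every other 12 h number lies above every 4 h number. Time and mouse number are thus tied in knockout and almost fully tied in wild type. The part of mouse number in the differences was not tested.

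Liver transcripts follow the time of day. In the molecular clock, BMAL1 (encoded by Arntl) pairs with CLOCK or NPAS2 and binds E-boxes in the genes of its own repressors, the PER and CRY proteins and CIART, and of REV-ERB and PAR bZIP factors. REV-ERB proteins (Nr1d1, Nr1d2) repress Arntl through ROR elements, and the PAR bZIP factors DBP, TEF and HLF drive further genes through D-boxes. In mouse liver this circuit and the daily feeding rhythm time the synthesis of lipid, glycogen, bile acid and secreted protein, while injury or cytokine signals raise acute phase transcripts in hepatocytes.

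Promoter windows of 300 bases, 250 before to 50 after an annotated start (RefSeq, GRCm38.p6), are printed for genes of the clock circuit with large changes, since they show its binding letters beside the measured transcript. Capitals mark a match on either strand to an E-box (CACGTG), a D-box (TTATGNAA) or a ROR element, in the form in capitals in the Arntl window or the same form with 1 more base. None of these patterns contains another. Each is written 5′ to 3′ on the strand of its gene.
Ciart (chr3:95882179-95882478, minus strand): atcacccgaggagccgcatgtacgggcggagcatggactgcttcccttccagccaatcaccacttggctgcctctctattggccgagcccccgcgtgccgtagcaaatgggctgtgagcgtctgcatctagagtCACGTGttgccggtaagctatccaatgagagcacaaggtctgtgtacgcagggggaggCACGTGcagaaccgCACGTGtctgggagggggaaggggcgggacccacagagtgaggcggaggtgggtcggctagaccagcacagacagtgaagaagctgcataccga
Per3 (chr4:151044616-151044915, minus strand): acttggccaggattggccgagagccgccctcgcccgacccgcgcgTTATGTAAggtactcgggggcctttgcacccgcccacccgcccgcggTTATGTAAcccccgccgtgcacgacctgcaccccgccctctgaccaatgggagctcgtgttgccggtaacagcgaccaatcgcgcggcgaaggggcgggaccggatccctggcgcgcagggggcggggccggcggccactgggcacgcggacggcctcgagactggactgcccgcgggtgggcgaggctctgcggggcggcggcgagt
Cyp2a5 (chr7:26835089-26835388, plus strand): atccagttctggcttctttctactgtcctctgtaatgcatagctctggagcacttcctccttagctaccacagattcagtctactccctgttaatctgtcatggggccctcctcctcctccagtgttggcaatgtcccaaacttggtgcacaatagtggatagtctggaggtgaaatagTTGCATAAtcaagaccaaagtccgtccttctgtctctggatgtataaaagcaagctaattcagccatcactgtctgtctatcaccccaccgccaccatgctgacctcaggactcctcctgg
Arntl (chr7:113207261-113207560, plus strand): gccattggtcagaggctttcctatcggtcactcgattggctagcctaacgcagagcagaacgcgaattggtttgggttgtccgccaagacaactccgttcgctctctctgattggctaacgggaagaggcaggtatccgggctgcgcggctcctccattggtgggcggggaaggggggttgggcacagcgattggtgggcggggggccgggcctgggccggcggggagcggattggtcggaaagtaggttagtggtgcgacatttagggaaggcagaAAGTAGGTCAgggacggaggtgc
The Ciart window held 3 E-boxes, which began 116, 58 and 44 bases before the start. The Per3 window held 2 D-boxes, at 205 and 158 bases before the start, and the Cyp2a5 window held 1 D-box at 71 bases before it. Its near-identical neighbour Cyp2a4 had the same D-box letters at 70 bases before its start. The Arntl window held a ROR element 27 bases after the start. Among all 32851 windows, 7.15% held an E-box, 3.385% a D-box and 0.064% a ROR element. Of 19 core clock genes 14 had a window, and 4 of their 21 windows held an E-box (Ciart, Bhlhe41, Cry1 and Per1), 2 a D-box (Per3 and Per1) and 1 a ROR element. Of 19 genes listed as clock output 16 had a window, and among 20 windows 2 held an E-box, both of Tef, and 3 held a D-box (Noct, Cyp2a4 and Cyp2a5). A match describes letters in the window and not a bound site, and the windows of other members, such as Dbp and Npas2, were not printed.

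The livers kept were chosen by measured values, those of all genes in each liver against its group, and these values are a description with no test. Over 11341 genes with a mean of at least 50 normalized counts, 30.4% lay at least 2-fold from the median of the other livers of the group in knockout 12 h replicate 1, against at most 9.88% in the livers kept. This liver had 55860.1 normalized counts of Sprr1a, a cornified envelope gene of the CCl4 injury list, and its counts summed over that list were 194587, against 2638 to 10327 in the 12 h livers kept. The values of this library go against its vehicle label. The library labelled knockout 4 h replicate 1 stood less far out, with 4.99% of genes at least 2-fold from the group, 4.01 counts of Sprr1a and an injury sum of 2500, within the 1759 to 4085 of the 4 h livers kept. Among the livers kept, knockout 12 h replicate 3 (9.88%) and wild-type 12 h replicate 1 (8.17%) lay farthest out, and wild-type 12 h replicate 1 had 1908 counts of Sprr1a. Wild-type 4 h replicate 1 had 412, and the other 16 livers kept had at most 8.54. The mouse numbers of these wild-type replicates 1 adjoin those of wild-type CCl4 mice of the same time. They lie below the numbers of the other vehicle livers of their groups. Recovered depths were 21.8 to 47.5 M reads at 12 h and 21.1 to 53.0 M reads at 4 h.

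The targeted gene was low and overlapped between genotypes. Adamts12 (ENSMUSG00000047497, chr15:11064790-11349231, plus strand, GRCm38) had 21.7, 9.04, 9.20 and 5.78 normalized counts in knockout livers at 12 h, and 20.4, 26.1, 14.2, 26.7 and 14.4 in wild-type livers at 12 h. At 4 h it had 5.88, 8.83, 3.02 and 0.949 in knockout livers and 7.53, 7.07, 16.2, 22.5 and 24.0 in wild-type livers. The 2 livers left out had 10.5 at 12 h and 2.01 at 4 h. The knockout values lay below every wild-type value at 12 h except for replicate 2, and overlapped with the 2 lowest wild-type values at 4 h. Its difference between the times did not pass the test (0.81 ± 0.35, adjusted p = 0.083).

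Of 14136 genes tested with limma, 4523 differed between the times at an adjusted p under 0.05, which is 32.0% of them. At 12 h 2294 genes were higher (16.2%) and 2229 were lower (15.8%). The counts of list members given below are to be read beside these shares. The values of the 9 livers at 12 h and the 9 at 4 h did not overlap in 679 genes (4.80%), and 800 genes (5.66%) were called with at least a 2-fold difference, 434 higher (3.07%) and 366 lower (2.59%). Where 3 values are given for a time, they are the lowest, the median and the highest of its livers. Differences are on the log2(normalized count + 1) scale, 12 h minus 4 h with genotype as a covariate, ± SE, and adjusted p-values are from limma with Benjamini-Hochberg adjustment over all tested genes. Because this scale adds 1 count, it understates the change of genes near 0. With all 20 livers 1918 genes were higher (13.5%) and 1857 lower (13.1%), and without knockout 12 h replicate 3 and wild-type 12 h replicate 1 5053 genes differed (36.0%). In bulk liver, fewer cells of a type and less transcript per cell cannot be told apart.

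**Figure D1:**
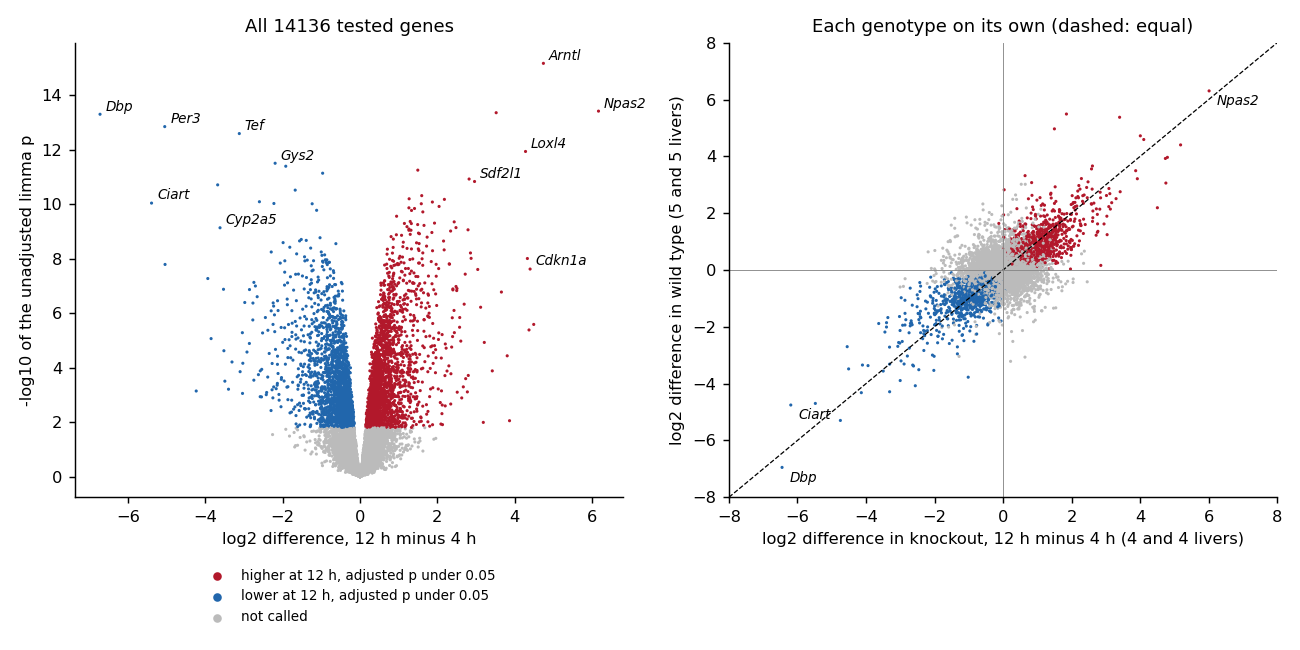
Left, the log2 difference between vehicle livers at 12 h and 4 h (x axis) against -log10 of the unadjusted limma p (y axis) for each of 14136 genes. The farthest points are clock genes on both sides. Right, the difference within knockout livers alone (x axis) against that within wild-type livers alone (y axis), coloured by the joint test, where most coloured genes have the same sign on both axes.

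Genes of the positive arm of the clock were high at 12 h and most of those of the negative arm low. Of 19 core clock genes 4 rose and 10 fell, with a median difference of -0.54, and 9 did not overlap between the times. The largest rise of all tested genes was that of Npas2, which encodes a partner of BMAL1. Npas2 (ENSMUSG00000026077, chr1:39193731-39363236, plus strand) had 216, 262 and 572 normalized counts at 12 h, against 0.901, 2.40 and 7.07 at 4 h, a log2 difference of 6.17 ± 0.31, adjusted p = 1.80e-10. Arntl (ENSMUSG00000055116, chr7:113207465-113314126, plus strand), which encodes BMAL1, had 853, 919.9 and 1380.4 normalized counts at 12 h, against 17.4, 35.4 and 79.1 at 4 h. All 9 livers at 12 h lay above all 9 at 4 h, and the difference was 4.75 ± 0.19, adjusted p = 9.73e-12. Clock, the other partner of BMAL1, rose by less, with 1493, 1963 and 2117 normalized counts at 12 h, against 669.8, 864 and 1219.7 at 4 h (1.15 ± 0.10, adjusted p = 2.05e-07).

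**Figure D2:**
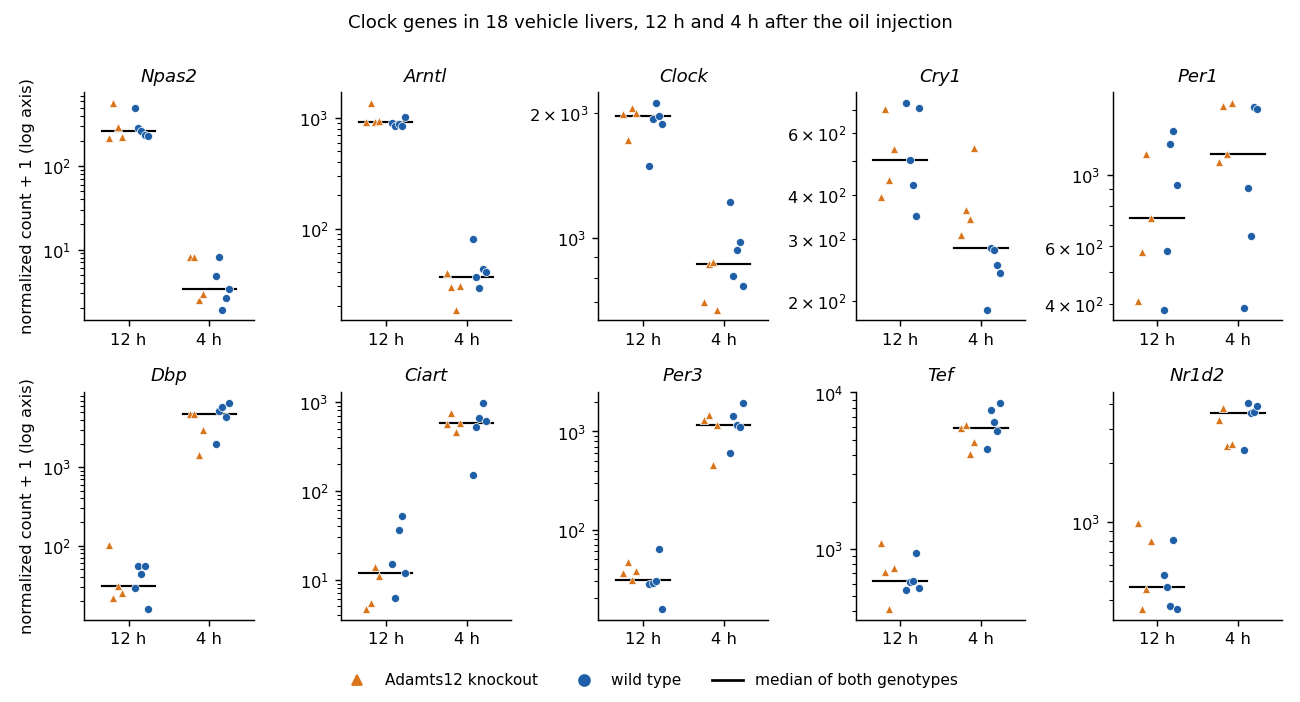
Normalized count + 1 (log axis) of 10 clock genes in each vehicle liver at 12 h (left of each panel) and 4 h (right), with triangles for knockout, circles for wild type and bars for the median of 9 livers. Npas2, Arntl and Clock lie higher at 12 h in every liver, Dbp, Ciart, Per3, Tef and Nr1d2 lie lower in every liver, and Per1 and Cry1 overlap.

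Among the repressors of the circuit, Per3 (ENSMUSG00000028957, chr4:151003652-151044665, minus strand), whose promoter holds the D-box pair, had 14.4, 29.4 and 62.9 normalized counts at 12 h, against 457, 1173 and 1967 at 4 h. Its difference was -5.05 ± 0.27, adjusted p = 4.08e-10. Ciart (ENSMUSG00000038550, chr3:95878503-95882251, minus strand), a repressor of BMAL1 whose promoter holds 3 E-boxes, had 3.62, 11.0 and 51.5 normalized counts at 12 h, against 151, 573 and 980.1 at 4 h, a difference of -5.39 ± 0.42, adjusted p = 5.77e-08. No liver of 12 h reached the lowest liver of 4 h for either gene. The REV-ERB gene Nr1d2 likewise did not overlap, with 355, 465 and 982 normalized counts at 12 h, against 2337, 3617 and 4071 at 4 h (-2.60 ± 0.20, adjusted p = 5.77e-08). Its relative Nr1d1 fell with overlap (-1.62 ± 0.36, adjusted p = 0.00184), with 291, 496 and 1688 normalized counts at 12 h, against 524, 1914 and 3571 at 4 h. Per2 (-1.64 ± 0.17, adjusted p = 1.15e-06), Cry2 (-0.69 ± 0.15) and the repressors Bhlhe40 (-2.23 ± 0.17, adjusted p = 5.77e-08) and Bhlhe41 (-2.98 ± 0.40) fell as well. Cry1, a repressor, was the only member of the PER and CRY families to rise, with 347, 502 and 731 normalized counts at 12 h, against 188, 282 and 543 at 4 h (0.79 ± 0.17, adjusted p = 0.0019). Per1 had 382, 736 and 1359.9 normalized counts at 12 h, against 386, 1161 and 1665 at 4 h, and its difference of -0.54 ± 0.31 did not pass the test (adjusted p = 0.196). Nor did those of Rora, Fbxl21 and the casein kinase genes Csnk1d and Csnk1e, which lay between -0.08 and 0.34.

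Most listed genes of clock output were lower at 12 h. Of 18 tested genes of the clock output list 12 fell and 2 rose, with a median difference of -1.45, against a median of -0.014 over all genes. The largest fall of all tested genes was that of Dbp (ENSMUSG00000059824, chr7:45705088-45710203, plus strand), a PAR bZIP activator at D-boxes. It had 14.4, 29.4 and 100.2 normalized counts at 12 h, against 1408, 4757 and 6641 at 4 h, a log2 difference of -6.73 ± 0.34, adjusted p = 1.80e-10. Its relative Tef had 408, 623 and 1086 normalized counts at 12 h, against 4031, 5933 and 8614 at 4 h (-3.12 ± 0.17, adjusted p = 6.12e-10). Neither gene overlapped between the times, and the lowest Dbp value of 4 h was above the highest of 12 h by a wide margin. The deubiquitinase gene Usp2 (-3.68 ± 0.26, adjusted p = 2.00e-08) and Wee1, a kinase that holds back mitotic entry (-3.53 ± 0.43, adjusted p = 7.94e-06), also fell without overlap, with medians of 85.1 at 12 h and 1331 at 4 h for Usp2 and medians of 28.8 at 12 h and 453 at 4 h for Wee1. Nfil3, which encodes a repressor at D-boxes, was one of the members that rose, with 1597, 2558 and 2882 normalized counts at 12 h, against 474, 1207 and 1844 at 4 h (0.96 ± 0.19, adjusted p = 0.000855). The other was the vasopressin receptor gene Avpr1a (1.64 ± 0.21, adjusted p = 9.62e-06). Hlf, the PAR bZIP gene named above beside Dbp and Tef, did not pass the test (-0.28 ± 0.11, adjusted p = 0.0536).

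Of the enzymes of this list Cyp2a5 (ENSMUSG00000005547, chr7:26835305-26843548, plus strand), a cytochrome P450 that oxidizes coumarin, had 1886, 2979 and 9612 normalized counts at 12 h, against 12921, 42140.3 and 75222 at 4 h, a log2 difference of -3.62 ± 0.32, adjusted p = 2.56e-07. Cyp2a4, a steroid hydroxylase, had 2650.4, 3906 and 23127 normalized counts at 12 h, against 27009, 35960 and 57123 at 4 h (-2.86 ± 0.35, adjusted p = 8.06e-06). These paralogs are nearly identical, so reads may have been assigned to either, and their values are uncertain as separate genes. Upp2, a uridine phosphorylase, had 197, 424 and 4239.6 normalized counts at 12 h, against 3665, 24261 and 32783 at 4 h (-5.04 ± 0.54, adjusted p = 1.89e-06), and its ranges overlapped through knockout 12 h replicate 3. Por, the electron donor of microsomal cytochromes P450 (-1.59 ± 0.18, adjusted p = 3.38e-06), Alas1, the first enzyme of haem synthesis (-1.24 ± 0.19, adjusted p = 6.33e-05), Nampt, of NAD salvage (-1.07 ± 0.17), and the rhythmic gene Noct (nocturnin) (-1.76 ± 0.29) fell as well, while Lpin1, a phosphatidate phosphatase, did not pass the test (-0.33 ± 0.36, adjusted p = 0.529).

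Transcripts of protein folding in the endoplasmic reticulum (ER) were higher at 12 h as a group. Of 23 tested genes of the unfolded protein and integrated stress response list 17 rose and 1 fell, the median difference was 1.09, and 14 did not overlap between the times. Hspa5, the ER chaperone BiP, had 46222, 57275 and 90152 normalized counts at 12 h, against 12929, 20928 and 32900.3 at 4 h (1.46 ± 0.18, adjusted p = 7.94e-06). Sdf2l1, a partner of BiP in folding, had 3103, 4194 and 6198 normalized counts at 12 h, against 348, 531 and 1261 at 4 h and the largest difference of the list (2.97 ± 0.21, adjusted p = 1.62e-08). Every 12 h liver lay above every 4 h liver for both. The same held for the chaperones Hyou1 (1.97 ± 0.21), Hsp90b1 (1.09 ± 0.12) and Calr (1.51 ± 0.14), the disulfide isomerases Pdia4 (1.87 ± 0.15) and Pdia6 (1.30 ± 0.12), the secreted ER proteins Creld2 (2.40 ± 0.30) and Manf (1.86 ± 0.22), and Syvn1 (1.84 ± 0.19) and Sel1l (0.98 ± 0.11) of ER-associated degradation. Derl3, another gene of that degradation pathway and outside the list, had 248, 769 and 1288 normalized counts at 12 h, against 14.5, 21.6 and 232 at 4 h (4.33 ± 0.45, adjusted p = 1.53e-06). The member that fell was Xbp1, a transcription factor that drives many of these genes, with 7655, 11415 and 13988 normalized counts at 12 h, against 17170.3, 19583 and 22181 at 4 h (-0.84 ± 0.11, adjusted p = 1.41e-05). Its counts do not separate spliced from unspliced transcripts. Ddit3, the stress factor CHOP, rose with overlap (1.16 ± 0.27, adjusted p = 0.00299). The members that did not pass the test were Atf4 (0.02 ± 0.10, adjusted p = 0.923), Trib3, Chac1, Ppp1r15a and Herpud1. The calls of Asns, Dnajb9 and Sesn2 were lost in 10, 12 and 12 of 18 fits that left out 1 liver. The count was 16 higher and 1 lower with all 20 livers. It was 17 and 1 without knockout 12 h replicate 3 and wild-type 12 h replicate 1, and 13 and 1 in knockout livers alone and 15 and 1 in wild-type livers alone.

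Several of the largest single rises lay outside these lists. Cdkn1a (ENSMUSG00000023067, chr17:29090976-29100727, plus strand), the p21 inhibitor of cyclin-dependent kinases and a p53 target, had 743, 2610.3 and 4165 normalized counts at 12 h, against 41.4, 73.2 and 516 at 4 h (4.40 ± 0.48, adjusted p = 2.47e-06). At 4 h, wild-type replicate 1 (516) and knockout replicate 4 (515) held the highest values and the other 7 had at most 103. Of 14 p53 targets 5 rose, the others being Bbc3, a pro-apoptotic BH3 protein (1.28 ± 0.34), Zmat3 (0.41 ± 0.09), Trp53inp1 (0.56 ± 0.18) and Bax (0.35 ± 0.10), and the median of the list was 0.16. The call of Trp53inp1 was lost in 4 of 18 fits that left out 1 liver. Loxl4, a lysyl oxidase of collagen crosslinking, had 395, 798 and 1666 normalized counts at 12 h, against 19.9, 45.0 and 91.6 at 4 h (4.28 ± 0.26, adjusted p = 2.38e-09). Its values did not overlap between the times. Il22ra1, a subunit of the interleukin 22 receptor (2.88 ± 0.30, adjusted p = 1.53e-06), the tubulin gene Tubb2a (2.86 ± 0.29) and the secreted matrix gene Spon2 (2.72 ± 0.31) followed. Ccdc149 (2.82 ± 0.20), Nucb2 (2.51 ± 0.31), the link protein gene Hapln4 (2.49 ± 0.30) and Lrfn3 (2.48 ± 0.22) were also among the 15 largest, each with an adjusted p of at most 7.72e-06.

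Besides clock genes, the 15 largest falls held Hamp2, a paralog of the iron hormone hepcidin, with 1705, 3053 and 6175 normalized counts at 12 h, against 6441, 22807 and 42483 at 4 h (-2.75 ± 0.32, adjusted p = 5.64e-06). Hamp itself, hepcidin, had 8825, 25157 and 56523 normalized counts at 12 h, against 27097, 56239 and 79838 at 4 h (-1.04 ± 0.27, adjusted p = 0.00705), and as a close paralog may share reads with Hamp2. Col4a3, a chain of basement membrane collagen, had 3.30, 15.6 and 34.3 normalized counts at 12 h, against 54.2, 80.3 and 249.8 at 4 h (-2.66 ± 0.34, adjusted p = 1.22e-05). Gpcpd1, a phosphodiesterase of glycerophosphocholine (-2.25 ± 0.34, adjusted p = 6.61e-05), Naaladl2 (-2.25 ± 0.30) and the noncoding RNA Gm15889 (-2.30 ± 0.23) were the others, and none overlapped between the times.

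**Figure D3:**
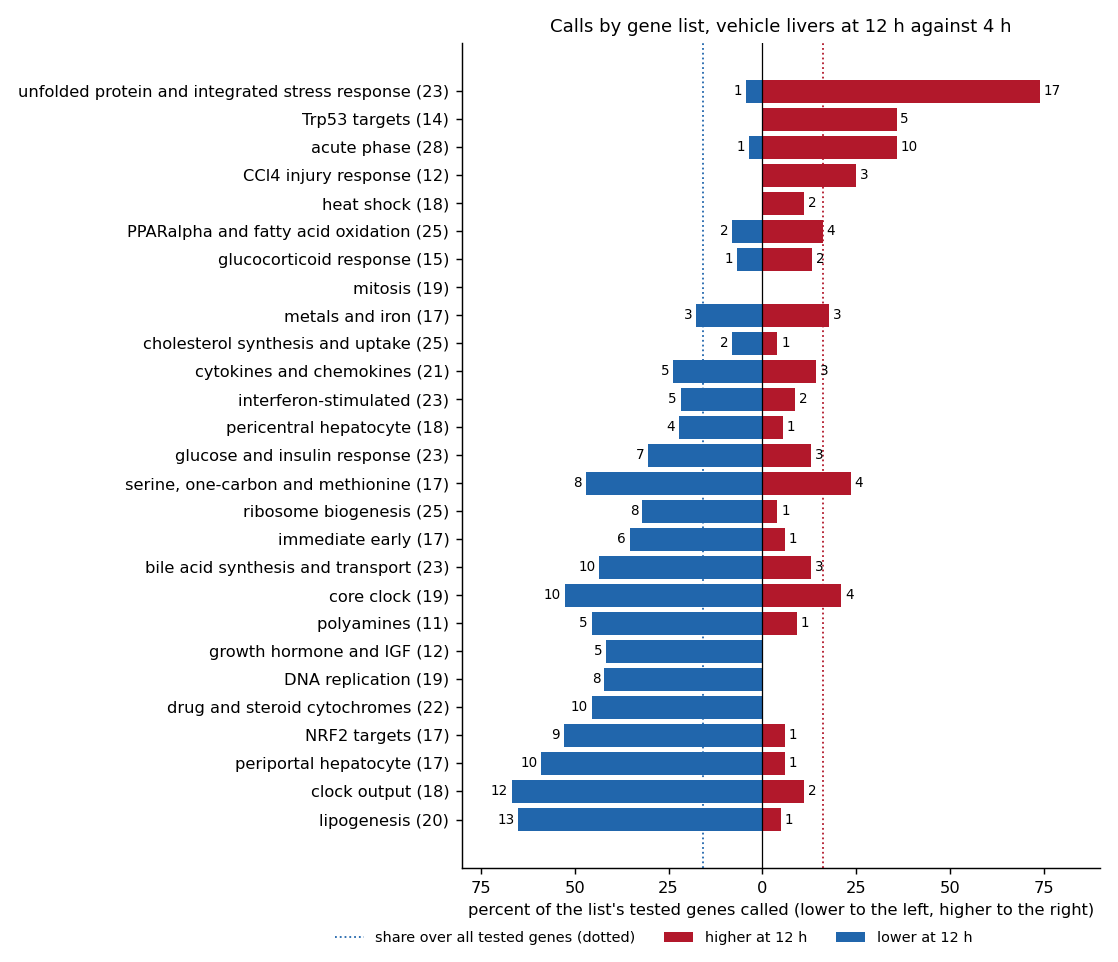
Share of each list's tested genes (number in brackets) that was called lower (left) or higher (right) at 12 h than at 4 h, with the number of genes at each bar and dotted lines at the 15.8% and 16.2% of all tested genes. The ER stress list stands out to the right with 17 of 23, and lipogenesis (13 of 20), clock output (12 of 18) and periportal genes (10 of 17) to the left.

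Most lipogenic transcripts were lower at 12 h. Of 20 genes 13 fell and 1 rose, with a median difference of -0.91. Scd1, which desaturates stearoyl-CoA, had 15852, 23776 and 166002 normalized counts at 12 h, against 91505, 258207 and 294177 at 4 h (-2.77 ± 0.41, adjusted p = 5.05e-05). Thrsp, a regulator of lipogenesis, had 176, 553 and 8409 normalized counts at 12 h, against 3003, 10083 and 24118 at 4 h (-3.52 ± 0.63, adjusted p = 0.000348), and Elovl6, a fatty acid elongase, had 1047, 1476 and 5813 normalized counts at 12 h, against 3887, 5843 and 9537 at 4 h (-1.76 ± 0.28, adjusted p = 0.000107). For these genes 7 of the 12 h livers were low and 2 were not. Knockout replicate 3 and wild-type replicate 1 had 166002 and 92177 counts of Scd1, against 15852 to 31951 in the other 7. Fatty acid synthase, Fasn, which was picked after its values were seen, had 35024 and 22764 in these 2 livers, 3065 to 8129 in the other 7 of 12 h, and 7137 to 22430.5 at 4 h. Its difference did not pass the test with 18 livers (-0.91 ± 0.39, adjusted p = 0.0827). Because these 2 livers were singled out by their low acute phase transcripts and also lie high in lipogenic ones, values without them describe the other livers and are no test of a difference. Without them 18 members were called lower and 1 higher. Acaca (-1.28 ± 0.21, adjusted p = 0.000118), Fads2 (-1.12 ± 0.28) and the glucose-sensing factor Mlxipl (-0.83 ± 0.19) fell in the fit with 18 livers. Srebf1, the main lipogenic transcription factor, was called with 18 livers (-1.28 ± 0.47, adjusted p = 0.0446), and its call was lost in 13 of 18 fits that left out 1 liver. The member that rose was Agpat2, an acyltransferase of phospholipid and triglyceride synthesis, with 7308, 7479 and 7991 normalized counts at 12 h, against 2790.5, 3963 and 5519 at 4 h (1.03 ± 0.11, adjusted p = 1.35e-06).

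Few genes of sterol synthesis passed the test with 18 livers. Of 25 genes 2 fell, Stard4 (-0.78 ± 0.21, adjusted p = 0.00911) and Tm7sf2 (-0.53 ± 0.17, adjusted p = 0.0223), and 1 rose, Mvd, whose call was lost in 10 of 18 fits that left out 1 liver. The median of the list was -0.05. Without the 2 livers 8 were called lower and 0 higher. Among PPARalpha targets and fatty acid oxidation genes 4 of 25 rose and 2 fell (median 0.09), or 24% called against 32.0% of all genes. The omega hydroxylases Cyp4a14 (1.37 ± 0.30, adjusted p = 0.00185), Cyp4a10 (1.06 ± 0.30) and Cyp4a31 (1.04 ± 0.25), close paralogs that may share reads, and Pdk4, an inhibitor of pyruvate dehydrogenase (2.03 ± 0.49, adjusted p = 0.0041), were the rises, and with all 20 livers the call of Cyp4a10 was lost. Ppara itself fell, with 1837, 2303 and 3942 normalized counts at 12 h, against 3045, 4443 and 6563 at 4 h (-0.90 ± 0.16, adjusted p = 0.000301).

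Transcripts of glycogen and glucose handling changed in both directions, with 7 of 23 lower, 3 higher and a median of -0.20. Gys2, liver glycogen synthase, had 1820.2, 2396 and 3414 normalized counts at 12 h, against 7156, 11868 and 15460.5 at 4 h and did not overlap (-2.20 ± 0.14, adjusted p = 5.63e-09). Ppp1r3c, a subunit that directs protein phosphatase 1 to glycogen, was higher, with 1245, 2647 and 3805 normalized counts at 12 h, against 263, 559.7 and 793 at 4 h (2.32 ± 0.25, adjusted p = 1.89e-06). The glucose transporter gene Slc2a2 (-1.17 ± 0.16, adjusted p = 1.83e-05), glycogen phosphorylase Pygl (medians of 5833 at 12 h and 14684 at 4 h), pyruvate kinase Pklr (-0.99 ± 0.27) and the glucose 6-phosphate transporter gene Slc37a4 (-0.85 ± 0.13) fell. G6pc, the catalytic subunit of glucose 6-phosphatase, rose (1.47 ± 0.39, adjusted p = 0.00671), with medians of 5786 at 12 h and 1877 at 4 h. Of 15 glucocorticoid response genes Tsc22d3 (1.05 ± 0.22, adjusted p = 0.0013) and Ddit4 (1.33 ± 0.29) rose and Map3k6 fell (-1.29 ± 0.36), the last not with all 20 livers. This is 20% of that list, against 32.0% of all genes.

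Among genes of nitrogen, bile acid and drug metabolism that passed the test, most were lower at 12 h. Of 17 periportal hepatocyte genes 10 fell (median of the list -0.50), among them Uox, urate oxidase, with 14572, 20025 and 34424 normalized counts at 12 h, against 42027, 74345 and 129993 at 4 h (-1.80 ± 0.21, adjusted p = 3.92e-06), the urea cycle enzymes Ass1 (-1.17 ± 0.23, adjusted p = 0.000797) and Otc (-0.69 ± 0.12), and Sds, serine dehydratase (-1.30 ± 0.24). Apoa4 rose (1.12 ± 0.32). Of 18 pericentral genes 4 fell and 1 rose, or 27.8% called against 32.0% of all genes. The rise was that of the Wnt target Axin2 (0.64 ± 0.13, adjusted p = 0.00113), with 307, 340.4 and 507 normalized counts at 12 h, against 161, 230.2 and 300 at 4 h. Of 22 drug and steroid cytochromes and their regulators 10 fell and 0 rose (median -0.47). Cyp2b10 had 29.7, 147 and 445 normalized counts at 12 h, against 139, 816 and 1534 at 4 h (-2.63 ± 0.57, adjusted p = 0.0016). The number called lower was 7 with all 20 livers, 6 with quantile normalization and 14, beside 1 higher, without the 2 livers named above.

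Among 23 bile acid and sterol transport genes 10 fell and 3 rose (median -0.39). Abcg5 and Abcg8, the subunits of the canalicular sterol exporter, fell without overlap. Abcg5 had 771, 1024 and 1989.6 normalized counts at 12 h, against 2257, 2651 and 3339.6 at 4 h (-1.29 ± 0.15, adjusted p = 6.05e-06), and Abcg8 had medians of 1049 at 12 h and 2995 at 4 h (-1.39 ± 0.19, adjusted p = 2.15e-05). The uptake transporter gene Slco1a4 (-1.81 ± 0.32, adjusted p = 0.000254) and Slc10a1 (-0.47 ± 0.10) fell too. Cyp8b1, which directs synthesis to cholic acid, rose, with 8249, 11117 and 19283 normalized counts at 12 h, against 2327, 3705 and 9929 at 4 h (1.36 ± 0.25, adjusted p = 0.000434), as did Fgfr4, the hepatic receptor for the intestinal signal that limits bile acid synthesis (0.72 ± 0.10, adjusted p = 1.99e-05), and Hsd3b7 (1.01 ± 0.17). With all 20 livers the call of Cyp8b1 was lost. Of 12 growth hormone and IGF genes 5 fell, with Cish (-1.33 ± 0.36, adjusted p = 0.00886) and Socs2 (-0.65 ± 0.18), feedback inhibitors of the receptor, and Ghr, the receptor (-0.64 ± 0.18), among them. Of 17 NRF2 targets, genes of the oxidative stress response, 9 fell (median -0.49) and Srxn1 rose (0.68 ± 0.19), though not with all 20 livers. The falls included Hmox1 (-1.11 ± 0.17, adjusted p = 7.76e-05) and the glutathione transferases Gstm1 (-1.11 ± 0.22), Gstm3 (-2.92 ± 0.53) and Gsta2 (-2.14 ± 0.43), whose paralogs may share reads.

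Enzymes of one-carbon and methionine metabolism moved in opposite directions. Cbs, which takes homocysteine to cystathionine, was higher at 12 h (0.66 ± 0.10, adjusted p = 7.82e-05), while Gnmt (-0.86 ± 0.18, adjusted p = 0.00133), Shmt1 (-0.60 ± 0.15), Aldh1l1 (-0.65 ± 0.15) and Ahcy (-0.49 ± 0.14) were lower. In all 8 of 17 genes of this list fell and 4 rose (median -0.32). Of 11 polyamine genes 5 fell, with Azin1, an antizyme inhibitor, at 2051, 2353 and 2894 normalized counts at 12 h, against 3484, 4869 and 6160.2 at 4 h (-1.03 ± 0.10, adjusted p = 4.43e-07), and Sat1, the polyamine acetyltransferase (-0.94 ± 0.13). Slc30a10, a manganese exporter, was the largest rise of the metal and iron list, with 2577, 2914 and 3563 normalized counts at 12 h, against 724, 1069.6 and 2055 at 4 h (1.40 ± 0.17, adjusted p = 8.73e-06).

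Acute phase transcripts were split among the 12 h livers. Of 28 genes 10 rose and 1 fell with 18 livers, with a median difference of 0.82. In wild-type livers alone 9 were called higher and 0 lower (median 1.19), and in knockout livers alone 1 higher and 1 lower (median 0.52). No gene passed the test of a difference between the genotypes. With all 20 livers 7 rose and 1 fell. Without knockout 12 h replicate 3 and wild-type 12 h replicate 1, the 12 h livers with the lowest summed acute phase counts, 21 were called higher and 1 lower, a count that the choice of these livers raises and that is no test. Saa1, a serum amyloid A gene named after its values were seen, had 166906, 1841, 636542 and 328263 normalized counts in knockout livers at 12 h and 4458, 584781, 535677, 581339 and 391086 in wild-type livers at 12 h. The 4 h livers had 44131, 78178 and 199301. So the 2 lowest livers at 12 h lay below every 4 h liver and the other 7 at 12 h lay high, with overlap. The difference with 18 livers was 0.63 ± 1.03, adjusted p = 0.686. Saa1 and its near-identical paralog Saa2 may share reads.

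**Figure D4:**
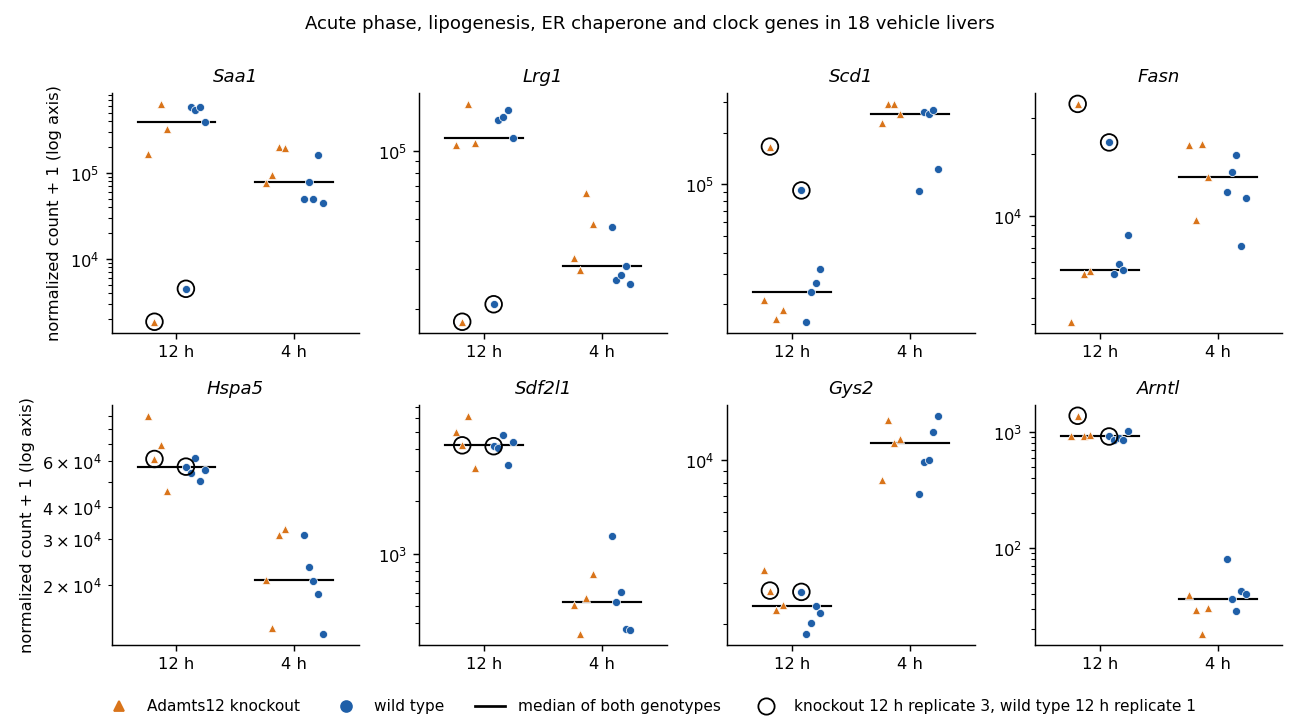
Normalized count + 1 (log axis) in each vehicle liver at 12 h (left of each panel) and 4 h (right), with triangles for knockout, circles for wild type, bars for the median of 9 livers and rings on knockout 12 h replicate 3 and wild-type 12 h replicate 1. The ringed livers are low in Saa1 and Lrg1 and high in Scd1 and Fasn, and lie among the other 12 h livers in Hspa5, Sdf2l1 and Gys2.

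Several members that passed the test with 18 livers showed the same split. Lrg1, a secreted leucine-rich glycoprotein, had 17609 and 21038 in the 2 livers, 105903 to 161644 in the other 7 of 12 h and 25865 to 65049 at 4 h (1.26 ± 0.41, adjusted p = 0.0238). Itih3 (1.24 ± 0.26, adjusted p = 0.00135), the lipopolysaccharide-binding protein gene Lbp (1.18 ± 0.28), Apcs, which encodes serum amyloid P (1.80 ± 0.47), and Saa3 (2.08 ± 0.58) rose. Ceruloplasmin, Cp, was the only member to rise without overlap of any liver, with 56576, 83613 and 99295 normalized counts at 12 h, against 33404, 40080.4 and 53241 at 4 h (0.96 ± 0.13, adjusted p = 3.01e-05). The member that fell was Hamp. In the 2 livers the neutrophil gene S100a8, also picked after its values were seen, had 28.3 and 26.7 counts, against 189.6 to 1096 in the other 7 and 79.3 to 268 at 4 h. The part of these livers' state in the lipogenic and acute phase counts was not tested. In Arntl and Dbp these livers lay on the 12 h side. The knockout liver had 1380.4 counts of Arntl, the highest of all, and the wild-type liver had 915. Their counts of Dbp were 20.3 and 28.3. This did not hold for every gene of the clock lists. For Cry2 the highest 12 h value, 918, came from 1 of these livers and lay above the lowest of 4 h, 757. The other 7 livers of 12 h had at most 684. In Upp2 the knockout liver lay within the 4 h range.

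Immediate early transcripts, which respond to stimuli within minutes, were mostly lower at 12 h among those that passed the test, with 6 of 17 lower, 1 higher and a median of -0.80. Fos had 49.5, 55.8 and 66.4 normalized counts at 12 h, against 57.7, 93.7 and 306 at 4 h (-0.80 ± 0.21, adjusted p = 0.00612), and Nr4a1 had 19.2, 51.9 and 81.7 normalized counts at 12 h, against 55.0, 94.8 and 297 at 4 h (-1.39 ± 0.30, adjusted p = 0.0017). Maff (-2.21 ± 0.32, adjusted p = 3.72e-05), Klf6 (-0.65 ± 0.14) and Btg2 (-1.07 ± 0.34) fell and Ier5 rose (0.50 ± 0.14), and with all 20 livers the calls of Klf6 and Btg2 were lost. In knockout livers alone 10 of the 17 were called lower, against 5.09% of all genes, and in wild-type livers alone 1, against 9.04%, but no member passed the test of a difference between the genotypes. Of 21 cytokines and chemokines 5 fell and 3 rose (median -0.09), or 38.1% called against 32.0% of all genes. Il1b (-1.33 ± 0.39, adjusted p = 0.0146) and Il1a (-0.84 ± 0.21) were lower and Cxcl13 (1.08 ± 0.29) and Cxcl14 (1.38 ± 0.36) higher. Of 23 interferon-stimulated genes 5 fell, such as Gbp3 (-0.96 ± 0.23, adjusted p = 0.00383) and Ifit3 (-0.84 ± 0.23), and 2 rose (median -0.38). This is 30.4% of the list, against 32.0% of all genes. With all 20 livers, where the call of Gbp3 was lost, 1 fell and 1 rose, against 26.6% of all genes called. Without the 2 livers 11 were called lower and 1 higher, against 36.0% of all genes called. Of 18 heat shock genes Hsph1 (0.76 ± 0.22, adjusted p = 0.0136) and Hsp90aa1 (0.48 ± 0.15) rose and 0 fell (median 0.15), but this balance turned with the livers used. Without the 2 livers 1 was called higher and 3 lower, the call of Hsp90aa1 being lost, and without the replicates 1 of wild type at both times 2 were called higher and 4 lower.

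Among genes of cell division, calls were made for replication and not for mitosis. Of 19 replication genes 8 fell and 0 rose (median -0.18). Ccne1, cyclin E1, had 12.4, 31.3 and 47.7 normalized counts at 12 h, against 96.1, 109 and 152 at 4 h (-1.95 ± 0.20, adjusted p = 1.66e-06), Mcm10, an initiation factor, had 196, 230 and 418 normalized counts at 12 h, against 448, 618 and 1204 at 4 h (-1.48 ± 0.20, adjusted p = 2.56e-05), and both were lower in every 12 h liver than in any of 4 h. Chaf1b, a histone chaperone subunit, fell (-1.31 ± 0.20) and Rrm2, of ribonucleotide reductase, fell (-1.29 ± 0.24). Of 19 mitosis genes 0 passed the test (median 0.20). Aurka, a mitotic kinase, had 18.4, 29.4 and 71.6 normalized counts at 12 h, against 3.21, 20.4 and 49.8 at 4 h (0.75 ± 0.38, adjusted p = 0.142). Of 25 ribosome biogenesis genes 8 fell (median -0.14), with Gnl3 (-0.69 ± 0.12, adjusted p = 0.000336) and Rrs1 (-0.67 ± 0.15) the largest, and Bop1 rose (0.49 ± 0.10). Of 78 cytosolic ribosomal protein genes 5 rose and 1 fell (median 0.04), and with quantile normalization, which moved the share of all genes called higher to 16.7% and lower to 15.2%, 19 rose and 1 fell.

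Few markers of liver cell types passed the test. The hepatocyte markers summed to 3152080 to 5431570 normalized counts at 12 h and 4685090 to 5517330 at 4 h, with 2 of 8 lower, Ttr (-0.68 ± 0.19, adjusted p = 0.0114) and Cps1 (-0.61 ± 0.21). Both calls were lost with quantile normalization, and that of Cps1 in 3 of 18 fits that left out 1 liver. Of 12 Kupffer cell markers 1 rose, Marco, whose call was lost in 14 of 18 fits that left out 1 liver, and the list summed to 10240.3 to 29171 at 12 h and 12115 to 26657 at 4 h. Of 12 monocyte and macrophage markers 3 rose, with Cd9 (1.37 ± 0.22, adjusted p = 0.000131) the largest, and 1 fell. In the cholangiocyte list 3 of 6 rose. Among them were Sox9 (1.51 ± 0.18, adjusted p = 6.50e-06) and Spp1 (0.86 ± 0.30, lost in 8 of 18 fits that left out 1 liver), while Epcam (medians of 22.5 at 12 h and 21.6 at 4 h) and Krt19 (medians of 23.9 at 12 h and 15.9 at 4 h), defining markers of these cells, did not pass. Rspo3 was the 1 of 14 sinusoidal endothelial markers that rose (0.46 ± 0.16), and this call was lost in 9 of 18 such fits. Among 8 neutrophil, 12 T and NK cell, 8 B and plasma cell, 15 stellate cell, 6 mesothelial and 5 erythroid markers 0 were called. The neutrophil list summed to 184 to 4608 at 12 h and 379 to 1412 at 4 h. The part of cell numbers in the results above was not tested.

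The genotypes were then taken apart. Knockout livers alone gave 1604 called genes (11.3%) with 4 livers at each time, 884 higher (6.25%) and 720 lower (5.09%). With all 5 and 5 knockout livers there were 1082 (7.65%). Wild-type livers alone gave 2558 (18.1%) with 5 at each time, 1280 higher (9.05%) and 1278 lower (9.04%). With 4 knockout livers a time, 999 genes were called in both genotypes, which is 62.2% of the knockout and 39.0% of the wild-type calls, and 998 had the same direction. No liver was shared between these fits. Among the genes called in wild type 94.6% had the same sign in knockout, against 71.7% of all genes. For Npas2 the difference was 6.01 ± 0.48 in knockout and 6.30 ± 0.38 in wild type, for Arntl 5.18 ± 0.25 in knockout and 4.40 ± 0.23 in wild type, for Dbp -6.45 ± 0.52 in knockout and -6.95 ± 0.39 in wild type and for Per3 -4.75 ± 0.34 in knockout and -5.30 ± 0.37 in wild type. For Sdf2l1 it was 3.09 ± 0.26 in knockout and 2.87 ± 0.29 in wild type, and for Gys2 -2.10 ± 0.19 in knockout and -2.27 ± 0.19 in wild type. The test of the difference between genotypes called 0 of 14136 genes with limma, the lowest adjusted p was 0.128, and 1076 genes (7.61%) had an unadjusted p under 0.05. At 4 and 5 livers a group, this does not show that the genotypes changed alike. The separate counts moved when single livers were left out. Without any one of knockout 12 h replicates 4 and 5 or knockout 4 h replicates 2, 3 and 5 the knockout count was 813 to 1033, without wild-type 4 h replicate 2 the wild-type count was 1611, and without both wild-type replicates 1 it was 3893.

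In wild type the same interval could be set beside livers that received CCl4. The 12 h minus 4 h difference was not the same in vehicle and CCl4 livers for 4646 of 14219 genes (32.7%), and CCl4 livers alone gave 7522 calls (52.9%). Of 19 core clock genes 14 changed in wild-type vehicle livers, 9 changed in CCl4 livers, and 9 differed between these changes. Arntl had 915, 858, 895, 853 and 1026 normalized counts at 12 h and 79.1, 35.4, 27.9, 41.8 and 39.6 at 4 h in vehicle livers and 407, 1030.5, 372, 482 and 556 at 12 h and 836, 418, 694, 1043 and 965 at 4 h in CCl4 livers, and the 5 vehicle livers of 4 h held the lowest values. The vehicle minus CCl4 difference was 4.91 ± 0.39, adjusted p = 8.44e-08. Dbp had 28.3, 53.8, 42.5, 53.4 and 14.4 normalized counts at 12 h and 1959, 5117, 5849.9, 4335 and 6641 at 4 h in vehicle livers and 53.2, 24.7, 124, 145 and 63.5 at 12 h and 110.3, 207, 129.6, 63.3 and 201 at 4 h in CCl4 livers (-6.03 ± 0.64, adjusted p = 2.17e-06). Ciart was higher at 12 h in CCl4 livers, with 238, 143, 459, 365 and 305 at 12 h and 47.8, 72.9, 129, 31.6 and 90.8 at 4 h, and the vehicle minus CCl4 difference was -6.82 ± 0.76, adjusted p = 3.23e-06. Nr1d1 had 1590.4, 573, 352, 677 and 360.3 normalized counts at 12 h and 2756, 2399, 1893, 3013 and 3571 at 4 h in vehicle livers and 622, 1074, 249, 302 and 448 at 12 h and 2002, 2465, 1397, 1826 and 2434 at 4 h in CCl4 livers, and the test of the difference gave -0.07 ± 0.52, adjusted p = 0.934. Of the 23 ER stress genes 13 differed between treatments in this change, among them Hspa5, with 179206, 235195, 318383, 321000 and 240939 at 12 h and 166744, 163550, 186537, 190339 and 150940 at 4 h in CCl4 livers (0.88 ± 0.30, adjusted p = 0.0299).

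The genes of the vehicle comparison were last followed over all 4 times, without a test. Arntl had 17.4, 35.4 and 79.1 at 4 h, 853, 919.9 and 1380.4 at 12 h, 451, 692 and 910 at 24 h and 464, 944 and 1281 at 7 days. Its low values were those of 4 h, and its 24 h and 7 day livers lay near the 12 h ones. Npas2 had 0.901, 2.40 and 7.07 at 4 h, 216, 262 and 572 at 12 h, 37.6, 78.4 and 223 at 24 h and 119, 312 and 674 at 7 days. Dbp had 1408, 4757 and 6641 at 4 h, 14.4, 29.4 and 100.2 at 12 h, 22.0, 127 and 588 at 24 h and 32.8, 203 and 1298 at 7 days, so 4 h was again the time apart, and no liver of the other times reached the lowest of 4 h. Per3 had 457, 1173 and 1967 at 4 h, 14.4, 29.4 and 62.9 at 12 h, 39.6, 114 and 269 at 24 h and 47.0, 85.8 and 269 at 7 days, and none of the later livers reached the range of 4 h.

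Other genes took other courses. Sdf2l1 had 348, 531 and 1261 at 4 h, 3103, 4194 and 6198 at 12 h, 1488, 2079 and 3898 at 24 h and 555, 1695 and 2364 at 7 days, with its highest median at 12 h. Cdkn1a had 41.4, 73.2 and 516 at 4 h, 743, 2610.3 and 4165 at 12 h, 277, 882 and 1577 at 24 h and 119.7, 269 and 397 at 7 days, also with the highest median at 12 h. Scd1 had 91505, 258207 and 294177 at 4 h, 15852, 23776 and 166002 at 12 h, 6398, 16789 and 31086 at 24 h and 112198, 266031 and 425685 at 7 days, with the lower values at 12 h and 24 h. Gys2 had 7156, 11868 and 15460.5 at 4 h, 1820.2, 2396 and 3414 at 12 h, 1749, 2484 and 2834 at 24 h and 2471, 3143 and 4132 at 7 days, so that only the 4 h livers were high. Lrg1 had 25865, 31189.7 and 65049 at 4 h, 17609, 114066 and 161644 at 12 h, 62581, 86514 and 135654 at 24 h and 5689, 12740.5 and 24774 at 7 days, and its 7 day livers lay below every liver of 4 h.

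**Figure D5:**
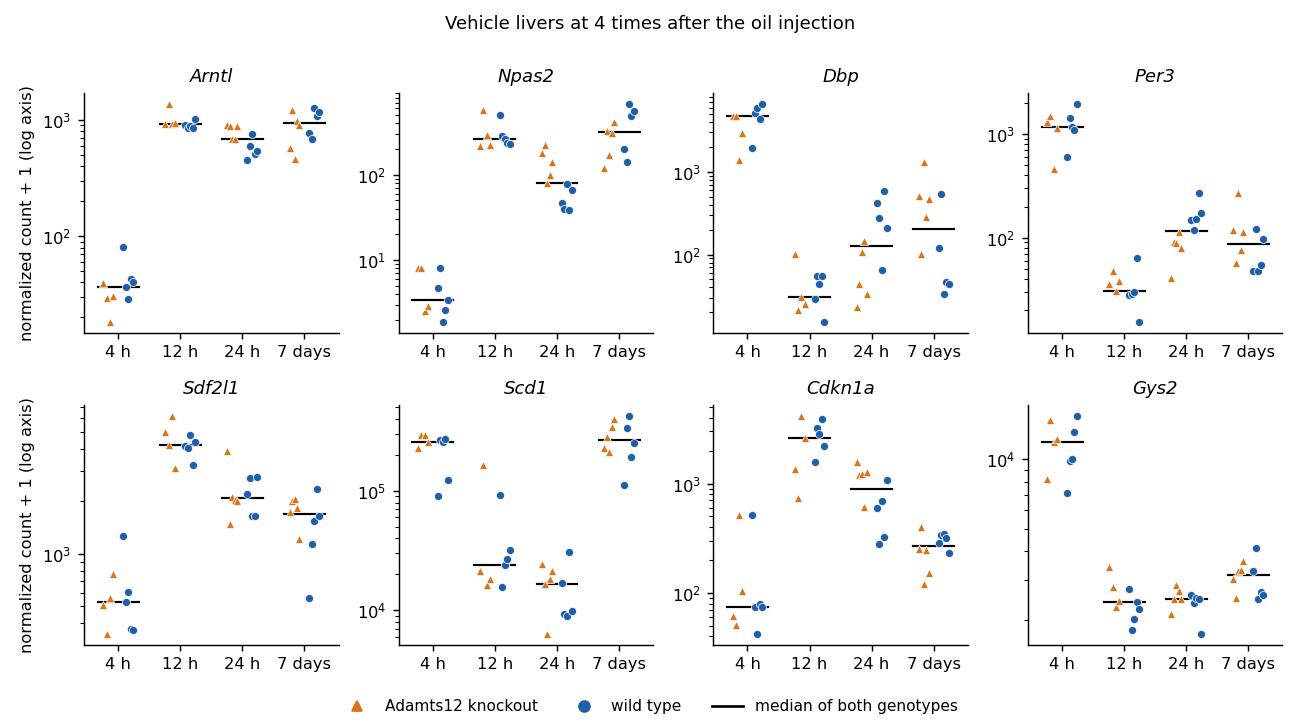
Normalized count + 1 (log axis) of 8 genes in vehicle livers at 4 h, 12 h, 24 h and 7 days after the injection, with triangles for knockout, circles for wild type and bars for the median of both genotypes (9, 9, 10 and 10 livers). Arntl and Npas2 are low and Dbp, Per3 and Gys2 high at 4 h alone, while Sdf2l1 and Cdkn1a peak at 12 h and Scd1 is low at 12 h and 24 h.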

How the data were processed

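RNA of livers in RNAlater was extracted with TRIzol and stranded mRNA libraries were made from 500 ng, per the labels' protocols. STAR, HTSeq, DESeq2 and the build GRCm38 are named in the submitters' processing notes, and their versions and settings are not given in the sources used here. The authors deposited 1 normalized signal value per gene and library, a count divided by a size factor. In every library 100.0% of the values were whole multiples of 1 step within 0.01, from which read totals of 21.1 to 53.0 M (median 29.65 M) were derived. The 10 highest genes held 22.5% to 27.5% of a library.

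Of 14560 genes in the table, those with a value of 10 or more in 5 or more of the 18 livers were tested, 14136 in number. limma 3.58.1 in R 4.3.3 was fitted to log2(value + 1) with time and genotype, and empirical Bayes with a trend, and called genes at an adjusted p under 0.05. The 2 genotypes, their difference, and wild-type vehicle against CCl4 livers were fitted likewise. The fits were tried on simulated livers with independent, normally distributed values and no outlying liver, unlike the real ones. With 18 livers 64.2% of 1.5-fold and 95.5% of 2-fold changes were recovered. Of 1.5-fold changes 34.3% were recovered in wild type alone and 19.4% in knockout alone. For the difference between genotypes it was 14.9%. These shares need not hold for the real livers. The labels give each library a mouse number but do not say whether livers came from 1 experiment or several. The p-values weigh each difference against the spread between livers of a group, and do not cover spread between experiments. No pair of libraries held the same values.

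Knockout 12 h replicate 1 and knockout 4 h replicate 1 were left out because their values stood apart from their groups, and the comparison, its members and the gene lists were chosen with earlier results of these data known. The text names Adamts12, every core clock gene, the 15 largest rises and falls among called genes with a mean of at least 100 normalized counts at either time and no overlap, members of the 43 lists (733 genes, 695 of them in the table) that passed the test, and the 10 genes that differed most firmly between vehicle and CCl4 livers, and some genes of this rule are not reported here. Gene positions are those of the GENCODE annotation of GRCm38. The alternatives were another pseudocount, filters, scalings, designs and sets of livers.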

Additional observations from a re-analysis of the deposited data

Results flagged for a closer look

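In 40 named genes the highest or lowest of the 9 livers of a time was set against the gap to its neighbour (Dixon's test), on normalized counts without logs. In 13 of 80 sets of 9 livers a liver lay past the 95% limit, and all 13 were the highest of their set. The 5% that chance gives at this limit holds for normally distributed values and separate sets. Counts without logs reach far upward and the sets share the same livers, so the 13 cannot be set against it. Wild-type 4 h replicate 1 was the highest of its time and past this limit in 7 genes. It had 79.1, against 41.8 normalized counts of Arntl in the next liver, 232, against 49.2 of Derl3 and 91.6, against 52.2 of Loxl4. It also had 1261, against 770.4 of Sdf2l1, 1092, against 674 of Tubb2a, 113, against 64.9 of Spon2 and 326, against 101 of Lrfn3. All 7 genes were higher at 12 h than at 4 h. Without this liver 4803 genes were called.

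Knockout 12 h replicate 3 had 1380.4, against 1026 of Arntl and 9612, against 5775 of Cyp2a5 in the next liver. Knockout 4 h replicate 5 had 543, against 362 of Cry1 in the next liver. Single livers also stood out for Dbp in knockout 12 h replicate 2 (100.2, against 53.8), Gpcpd1 in wild-type 12 h replicate 4 (5949, against 3351) and Col4a3 in wild-type 4 h replicate 5 (249.8, against 124).

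The 10 genes whose 12 h minus 4 h difference departed most firmly between wild-type vehicle and CCl4 livers, by limma's interaction term, are given as vehicle minus CCl4 on the log2 scale. In 4 of them the difference passed the test in wild-type vehicle livers alone. It was 4.91 for Arntl (4.40 ± 0.23 in vehicle and -0.51 ± 0.29 in CCl4 livers, adjusted p = 8.44e-08), 3.17 for Nt5e (1.23 ± 0.19 in vehicle and -1.94 ± 0.17 in CCl4 livers, adjusted p = 1.34e-07), 5.28 for Ackr2 (0.79 ± 0.19 in vehicle and -4.49 ± 0.21 in CCl4 livers, adjusted p = 4.08e-10) and -2.09 for Ppif (-0.62 ± 0.12 in vehicle and 1.46 ± 0.13 in CCl4 livers, adjusted p = 1.34e-07). The others did not pass the test in those vehicle livers and were -5.06 for Abcc4 (-0.18 ± 0.24 in vehicle and 4.87 ± 0.15 in CCl4 livers, adjusted p = 4.67e-10), -2.41 for Anxa5 (-0.06 ± 0.11 in vehicle and 2.35 ± 0.10 in CCl4 livers, adjusted p = 5.31e-10), 1.98 for Nudt4 (-0.03 ± 0.10 in vehicle and -2.01 ± 0.12 in CCl4 livers, adjusted p = 5.40e-08), -4.38 for Fam171b (-0.13 ± 0.24 in vehicle and 4.24 ± 0.23 in CCl4 livers, adjusted p = 5.40e-08), -4.13 for Pmm1 (0.14 ± 0.21 in vehicle and 4.27 ± 0.23 in CCl4 livers, adjusted p = 6.00e-08) and -3.62 for Fads3 (0.52 ± 0.25 in vehicle and 4.13 ± 0.17 in CCl4 livers, adjusted p = 1.34e-07).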

How the results depend on the processing

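Over 13 alternatives 3775 to 5053 genes were called, against 4523, the extremes being all 20 livers and the fit without knockout 12 h replicate 3 and wild-type 12 h replicate 1 (chosen after seeing the data, as was putting knockout 4 h replicate 1 back, which gave 4590). Leaving out 1 liver gave 3974 (without knockout 12 h replicate 4) to 4803 (without wild-type 4 h replicate 1). In wild type alone the count was 1611 to 3323 when 1 liver was left out, and 3893 without both replicates 1, against 2558. In knockout alone it was 813 to 2226, against 1604. The difference between genotypes gave 0 calls in 6 alternatives and 0 to 1 when 1 liver was left out. Vehicle against CCl4 gave 3974 to 5444, against 4646, and with quantile normalization the share of calls with a higher vehicle difference was 46.8%, against 54.1%. Of 320 genes 215 kept their direction and side of the threshold in all 31 alternatives, and 78 lost a call in at least 1. Cyp2b9 was the only one to change sign, at 0.0395 (adjusted p = 0.972) with knockout 4 h replicate 1 put back. The cause of these changes was not tested.

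The labels do not say that replicate numbers pair the livers. Within a genotype, same-numbered livers of 12 h and 4 h correlated at -0.24 to 0.27. Of 9 livers at 12 h 2 correlated best with their own number at 4 h. So few livers cannot settle whether the numbers pair them. With the replicate number as a block 4459 genes were called in the joint fit, 1791 in wild type, 1193 in knockout, 0 for the genotypes and 4605 for vehicle against CCl4. edgeR and DESeq2 were not run on the reads derived from the normalized values, so every call rests on limma. At these depths genes near 1 to 10 counts, such as Adamts12, carry the largest counting error.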

Other observations

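Bhlha15, a transcription factor of secretory cells, had 71.2, 316 and 902 normalized counts at 12 h, against 0, 8.65 and 75.0 at 4 h (4.50 ± 0.68, adjusted p = 6.61e-05), and its ranges overlapped only narrowly. It was the largest of 3 rises among 12 genes of the CCl4 injury list in vehicle livers, where the median was 0.69, beside Srxn1 and Psat1 (1.37 ± 0.50, adjusted p = 0.044, a call lost in 12 of 18 fits that left out 1 liver). In the metal and iron list 3 of 17 rose and 3 fell. The zinc importer gene Slc39a8 rose without overlap (0.37 ± 0.08, adjusted p = 0.00181), Tfr2, a sensor of transferrin iron, rose (0.29 ± 0.08, adjusted p = 0.00986), and Id1, a target of the BMP signal that also drives hepcidin, fell (-1.08 ± 0.23, adjusted p = 0.00142), as Hamp and Hamp2 did. Of 2 cold-inducible RNA-binding genes Cirbp rose (0.41 ± 0.10, adjusted p = 0.00357), and Rbm3 did not pass (0.47 ± 0.33, adjusted p = 0.292). With all 20 livers neither was called, and without knockout 12 h replicate 3 and wild-type 12 h replicate 1 both were called higher. Of the polyamine genes the antizyme inhibitor gene Azin2 fell without overlap, with 8.48, 17.0 and 25.8 normalized counts at 12 h, against 26.6, 39.6 and 101 at 4 h (-1.41 ± 0.25, adjusted p = 0.000333), and Srm, spermidine synthase, was the 1 of 11 to rise (0.33 ± 0.12, adjusted p = 0.0381), a call lost with all 20 livers and in 10 of 18 fits that left out 1 liver. Of 2 pancreatic acinar and 2 adipocyte markers 0 were called.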
